A study of Mus musculus with 16 samples.

Results

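The lipid-associated macrophage (LAM) programme was followed in F4/80+ adipose tissue macrophages (ATMs) through 10 of its genes, Trem2, Cd9, Lpl, Fabp4, Fabp5, Gpnmb, Spp1, Lipa, Plin2 and Cd36. The members were taken by name from the gene table, and all 10 were found among its 37310 gene rows and passed the filter on low counts in every comparison. RNA was sequenced from ATMs of epididymal fat in 16 libraries, 4 per group, from WT mice and from mice with a myeloid deletion of Irf5 (IRF5-KO) after 4 weeks (ST-HFD) or 12 weeks (LT-HFD) of a high-fat diet. The deletion was made by crossing floxed Irf5 mice with LysM-Cre mice, in which Cre sits in the Lyz2 locus and acts in most myeloid cells and not in ATMs alone. All groups received the same high-fat diet and no chow-fed group is part of these libraries, so ST-HFD is the earlier of 2 fed states and not a lean control. The mice were male young adults when the diet began. The labels do not say whether a library came from a single animal, and p-values therefore measure the spread between libraries.

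LAMs are the macrophages that gather around enlarged or dying adipocytes in obese fat, take up the lipid set free there and break it down in lysosomes. Their programme depends on TREM2, a surface receptor for lipids and lipoproteins that signals through the adaptor TYROBP (DAP12) and the kinase SYK. The 10 genes cover its main steps, which are lipid sensing (Trem2), lipoprotein hydrolysis and fatty acid uptake (Lpl, Cd36), transport of fatty acids in the cytosol (Fabp4, Fabp5), hydrolysis of cholesteryl esters in the lysosome (Lipa) and coating of lipid droplets (Plin2), beside the surface and secreted markers Cd9, Gpnmb and Spp1.

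Total counts per library were between 3279332 and 4958131. Libraries labelled IRF5-KO did not have less Irf5 RNA than those labelled WT. Given as CPM, counts scaled to the size of the library, it was 203 to 252 CPM in the libraries labelled WT and 250 to 274 CPM in those labelled IRF5-KO on ST-HFD, and 171 to 213 CPM and 206 to 254 CPM on LT-HFD. A total per gene does not separate the deleted exons from the others, and Irf5 overlaps Tnpo3 on the opposite strand. Lyz2, whose coding sequence Cre replaces, was lower in every library labelled IRF5-KO than in every library labelled WT, at 1757 ± 251 against 3429 ± 288 CPM on ST-HFD and 1789 ± 182 against 3673 ± 483 CPM on LT-HFD (SD, n = 4 each). Genotypes are therefore given as labelled, and WT and IRF5-KO name the libraries labelled so throughout. Diet durations are also given as labelled, and compared by eye a plot of Irf5 in the study draws the libraries labelled 4 weeks as the longer diet and those labelled 12 weeks as the shorter one. If the labels of the durations were exchanged, every difference between durations below would change its sign. The sorting marker Adgre1 (F4/80) was between 507 and 995 CPM in all 16 libraries, and was called higher on LT-HFD in IRF5-KO (log2 fold change 0.46, edgeR adjusted p = 0.0235) and not in WT (0.20, edgeR adjusted p = 0.356). WT LT-HFD replicate 4 stood apart from the rest, with a median Spearman correlation of 0.892 with the other libraries against at least 0.921 for each of the others, and the counts of called members and the medians between genotypes are also given without it.

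The bases upstream of the start sites of Trem2, Gpnmb and Spp1 are shown because Trem2 names the programme, Gpnmb varied most between libraries, and Spp1 is the member with letters of an interferon regulatory factor (IRF) motif in 1 of its 2 windows. The RefSeq promoter table for GRCm38.p6 held 7 of the 10 members, and Lpl, Fabp4 and Fabp5 were without an entry. Each line gives 250 bases 5′ to 3′ on the strand of the gene up to its start, in lower case, with the letters that match a searched motif in capitals. The Trem2 window lies at chr17:48346151-48346400 on the plus strand, the Gpnmb window at chr6:49036268-49036517 on the plus strand and the Spp1 window at chr5:104434861-104435110 on the plus strand. Spp1 had a second window in the table, at chr5:104435942-104436191, which matched none of the motifs and is not shown.
Trem2: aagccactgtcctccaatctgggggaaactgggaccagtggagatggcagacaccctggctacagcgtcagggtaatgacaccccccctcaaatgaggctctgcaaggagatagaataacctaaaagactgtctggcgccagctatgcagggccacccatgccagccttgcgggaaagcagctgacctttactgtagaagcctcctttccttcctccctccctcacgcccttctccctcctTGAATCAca
Gpnmb: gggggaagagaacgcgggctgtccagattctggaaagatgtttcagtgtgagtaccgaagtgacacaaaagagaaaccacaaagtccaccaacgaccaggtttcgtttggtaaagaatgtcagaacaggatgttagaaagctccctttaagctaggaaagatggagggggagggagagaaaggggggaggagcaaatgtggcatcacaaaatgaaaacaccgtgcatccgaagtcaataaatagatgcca
Spp1: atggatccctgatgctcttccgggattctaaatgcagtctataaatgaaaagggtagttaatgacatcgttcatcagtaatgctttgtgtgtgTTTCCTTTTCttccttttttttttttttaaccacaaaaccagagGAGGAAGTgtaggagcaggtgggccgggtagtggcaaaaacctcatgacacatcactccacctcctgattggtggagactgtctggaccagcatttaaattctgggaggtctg
The motifs were searched on both strands and did not overlap in these windows. TGANTCA, the AP-1 motif, starts 9 bases before the Trem2 start and was found in 6.73% of 32536 distinct promoter windows of the same length. An IRF motif, GAAA followed after 2 bases by a second GAAA, starts 157 bases before the Spp1 start on the opposite strand and was found in 2.98% of the windows. GAGGAAGT, a PU.1 motif, starts 113 bases before the same start and was found in 2.45%. The Gpnmb window held none of the motifs searched. Each of these 3 motifs was matched in 1 of the 7 members with an entry. The E-box CACGTG (6.04% of the windows), the M-box TCATGTG (3.27%) and the direct repeat read by PPAR and RXR, AGGNCA followed after 1 base by a second AGGNCA (0.341%), were matched in 0 of the 7. A match is a description of the letters and not a binding site, and a missing match says only that the letters are not in the window.

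Levels per kilobase of exon (CPM per kb, mean over the 16 libraries) ordered the members from the fatty acid receptor gene Cd36 (459 CPM per kb) through Plin2 (254), Lpl (137), Gpnmb (122), Lipa (68.2), Fabp5 (60.2), Cd9 (47.5), Fabp4 (31.0) and Spp1 (27.8) to Trem2 (27.2). The lipid uptake and storage genes Cd36, Plin2 and Lpl thus had the highest levels. The lowest place depended on the divisor, which joins all annotated exons of a gene and is not the length of a transcript. In CPM without it the lowest median over the 16 libraries was that of Spp1 (50.35), with Cd9 at 92.5 and Trem2 at 124.8. Every member was detected in every library, the lowest count being 47 reads for Spp1 in WT ST-HFD replicate 2. The mean level of all 10 members was highest in the group labelled IRF5-KO LT-HFD, which did not pass the test between genotypes for any of them.

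**Figure D1:**
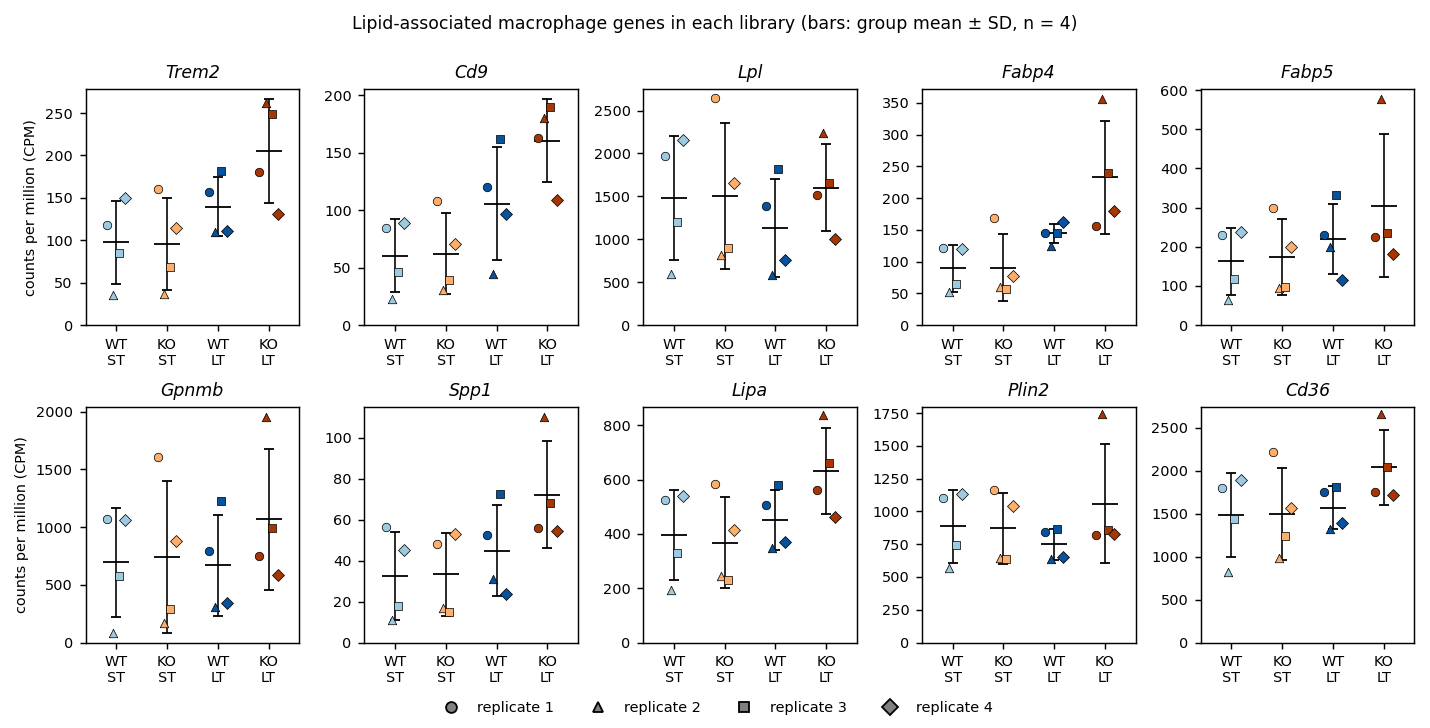
Level of each member in CPM (vertical axes, linear from 0) in the 16 libraries by group, with a symbol for each replicate and bars for the group mean ± SD (n = 4). On ST-HFD replicates 1 and 4 lie above replicates 2 and 3 for each gene in both genotypes, and the highest value of Plin2 is 1741 CPM in IRF5-KO LT-HFD replicate 2.

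The first comparison asked how the LAM genes differed between the longer and the shorter diet within each genotype. In the libraries labelled IRF5-KO, 3 of the 10 members rose on LT-HFD, namely Trem2, Cd9 and Fabp4, and none fell. Of all 11560 genes tested, 15.6% were called higher and 17.2% lower in this comparison. In the libraries labelled WT, 0 of the 10 members were called, against 12.1% of all genes called higher and 13.2% called lower. Median log2 fold changes of the 10 members were 0.80 in IRF5-KO and 0.31 in WT, beside 0.04 and 0.02 over all genes. Single libraries moved these medians. In IRF5-KO the median was 0.45 without LT-HFD replicate 2 and 1.24 without ST-HFD replicate 1. In WT it was 0.06 without ST-HFD replicate 2, 0.08 without LT-HFD replicate 3, 0.18 without ST-HFD replicate 3, 0.49 without ST-HFD replicate 1 and 0.52 without ST-HFD replicate 4. In sorted cells sequenced in bulk, a change in the share of a type of macrophage and a change in RNA per cell cannot be told apart.

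Trem2 (ENSMUSG00000023992, chromosome 17 from 48346401 to 48354147 on the plus strand) was measured at 161, 37.0, 69.1 and 115 CPM in the libraries labelled IRF5-KO ST-HFD, replicates 1 to 4, and at 181, 262, 249 and 131 CPM in IRF5-KO LT-HFD. In the libraries labelled WT it was at 119, 36.0, 85.5 and 150.0 CPM on ST-HFD and at 157, 110, 181 and 112 CPM on LT-HFD. Replicates 2 and 3 on ST-HFD held the low values in both genotypes, and the ranges of the diet durations overlapped in both. The log2 fold change on LT-HFD was 1.10 in IRF5-KO (SE, the standard error, 0.40, edgeR adjusted p = 0.0420), a 2.15-fold rise that 15 of 16 pairs of libraries showed. In WT it was 0.52 (SE 0.40, edgeR adjusted p = 0.381). The call in IRF5-KO was lost in 9 of the 16 fits that left out a library, with an adjusted p of 0.05055 without WT ST-HFD replicate 1, 0.05001 without WT ST-HFD replicate 3, 0.115 without IRF5-KO ST-HFD replicate 2, 0.114 without IRF5-KO ST-HFD replicate 3, 0.0542 without IRF5-KO ST-HFD replicate 4, 0.0512 without WT LT-HFD replicate 1, and 0.0576, 0.105 and 0.102 without IRF5-KO LT-HFD replicate 1, 2 and 3. It was also lost with DESeq2's Wald test (adjusted p = 0.0641) and with the replicate number as a block (edgeR adjusted p = 0.0615).

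Cd9 (ENSMUSG00000030342, chromosome 6 from 125460266 to 125494791 on the minus strand) encodes a tetraspanin used as a surface marker of lipid-laden ATMs. Its levels were 108, 30.9, 39.5 and 70.4 CPM in IRF5-KO ST-HFD, replicates 1 to 4, and 163, 180.0, 189.9 and 109 CPM in IRF5-KO LT-HFD. The groups did not overlap, although the lowest LT-HFD library (108.7 CPM) was close to the highest ST-HFD library (107.9 CPM), and 14.3% of all genes were higher without overlap in this comparison. The log2 fold change was 1.36 (SE 0.43, edgeR adjusted p = 0.0207), or 2.57-fold. In WT it was at 84.1, 23.0, 45.8 and 88.8 CPM on ST-HFD and at 120, 44.4, 162 and 96.2 CPM on LT-HFD, with overlap and a log2 fold change of 0.80 (SE 0.42, edgeR adjusted p = 0.187). Exons of Cd9 overlap Gm26728 on the opposite strand, and the strand setting of the counting is not given in the sources used here. The call in IRF5-KO was lost without IRF5-KO ST-HFD replicate 2 (adjusted p = 0.0664), IRF5-KO ST-HFD replicate 3 (0.0682) or IRF5-KO LT-HFD replicate 3 (0.0537).

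Fabp4 (ENSMUSG00000062515, chromosome 3 from 10204088 to 10208576 on the minus strand) encodes a cytosolic carrier of fatty acids that is abundant in adipocytes and induced in lipid-loaded macrophages. It was at 169, 60.5, 56.8 and 76.8 CPM in IRF5-KO ST-HFD, replicates 1 to 4, and at 156, 356, 239 and 179.8 CPM in IRF5-KO LT-HFD. A single ST-HFD library, replicate 1, reached into the LT-HFD range. Its log2 fold change of 1.35 (SE 0.34, edgeR adjusted p = 0.00565), or 2.56-fold, stayed called in each of the 16 fits that left out a library, with an adjusted p of 0.000272 to 0.0251. In WT the values were 121, 51.5, 64.5 and 120.2 CPM on ST-HFD and 145, 125, 146 and 162 CPM on LT-HFD. These groups did not overlap, as for 12.3% of all genes higher on LT-HFD in WT, and the log2 fold change of 0.69 was not called (SE 0.34, edgeR adjusted p = 0.155).

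Spp1 (ENSMUSG00000029304, chromosome 5 from 104435118 to 104441050 on the plus strand) encodes osteopontin, a secreted ligand of integrins and CD44. It was at 48.3, 16.7, 15.0 and 53.2 CPM in IRF5-KO ST-HFD, replicates 1 to 4, and at 55.9, 110.3, 68.3 and 54.7 CPM in IRF5-KO LT-HFD, again without overlap. The log2 fold change of 1.11 was not called over all genes (SE 0.48, edgeR adjusted p = 0.0873). In WT it ranged from 10.9 to 56.2 CPM on ST-HFD and from 23.7 to 72.6 CPM on LT-HFD, with a log2 fold change of 0.45 (SE 0.49, edgeR adjusted p = 0.548). Exons of Spp1 overlap Gm42793 on the same strand.

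The other 6 members were not called in either genotype. Lipa (ENSMUSG00000024781, chromosome 19 from 34492318 to 34527474), the lysosomal acid lipase gene, was at 232 to 585 CPM on ST-HFD and 464 to 837 CPM on LT-HFD in IRF5-KO, with a log2 fold change of 0.78 (SE 0.32, edgeR adjusted p = 0.0708) and 0.19 in WT, where it was at 195 to 541 and 350.1 to 581 CPM. Fabp5 (ENSMUSG00000027533, chromosome 3 from 10012548 to 10016607), another fatty acid carrier, covered 95.4 to 300.0 and 181 to 577 CPM in IRF5-KO and 62.9 to 239 and 116 to 331 CPM in WT, with log2 fold changes of 0.81 and 0.43. Cd36 (ENSMUSG00000002944, chromosome 5 from 17781690 to 17888801), which imports long-chain fatty acids and oxidised lipoproteins, had log2 fold changes of 0.44 and 0.08, from 979.5 to 2216 CPM to 1715 to 2654 CPM in IRF5-KO and from 819 to 1890.0 CPM to 1319 to 1806 CPM in WT. For these 3 genes the ranges of the durations overlapped in both genotypes. The genes that release fatty acids from lipoproteins and coat the droplet were the nearest to 0 in IRF5-KO, with 0.09 for Lpl (ENSMUSG00000015568, chromosome 8 from 68880491 to 68907448) and 0.28 for Plin2 (ENSMUSG00000028494, chromosome 4 from 86648386 to 86670060), and they were negative in WT, with -0.38 and -0.24. Lpl covered 580.0 to 2646 CPM and Plin2 565 to 1741 CPM over the 16 libraries. Gpnmb (ENSMUSG00000029816, chromosome 6 from 49036546 to 49070929), a transmembrane glycoprotein gene of lysosomal stress, had 0.54 in IRF5-KO with the largest standard error among the members (0.70) and -0.06 in WT. In WT the values of Gpnmb (0.30) and Plin2 (0.14) were positive when the libraries were scaled to their macrophage markers, as was Gpnmb with upper-quartile factors (0.018). Fabp5 has near-identical processed copies elsewhere in the genome, and its counts depend on how reads with several matches were treated.

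**Figure D2:**
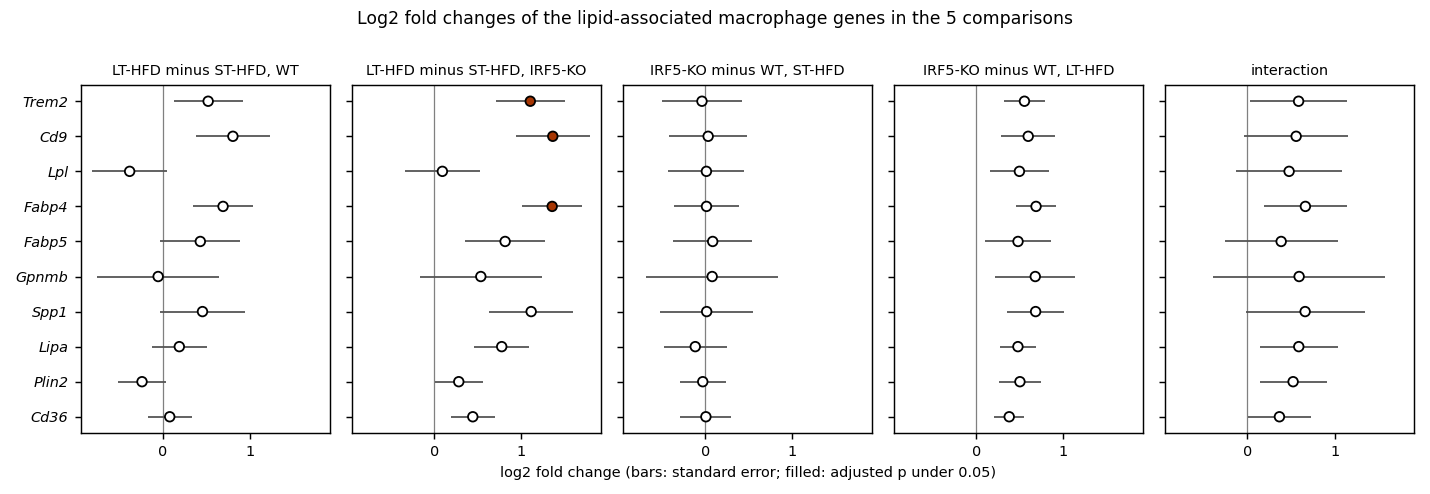
Log2 fold change (horizontal axes) of each member in the 5 comparisons, with standard errors as bars and filled points where edgeR gave an adjusted p under 0.05. The filled points are Trem2, Cd9 and Fabp4 on LT-HFD against ST-HFD in IRF5-KO, and the points for genotype on ST-HFD lie between -0.115 and 0.085.

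The number of members called depended on single libraries and on the scaling. It was 1 without IRF5-KO ST-HFD replicate 2, without IRF5-KO ST-HFD replicate 3 or without IRF5-KO LT-HFD replicate 3, and 5 without IRF5-KO ST-HFD replicate 1, where Lipa (adjusted p = 0.0154) and Cd36 (adjusted p = 0.0439) were added. Without WT LT-HFD replicate 4 it stayed at 0 in WT. Scaling the libraries to their summed macrophage markers, chosen after seeing the data, shifted the median log2 fold change of all genes by 0.42 in IRF5-KO and 0.39 in WT, and on that scale 8 members were higher in IRF5-KO and 2 (Cd9 and Fabp4) in WT. The same scale called 43.2% of all genes higher and 6.45% lower in IRF5-KO, and 38.6% higher and 4.71% lower in WT, so that the 2 members in WT are below the share over all genes.

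RNA of other cell types moved with diet duration beside these genes. The sum of 8 fibroblast and preadipocyte markers (all 8 detected) was 583 to 1406 CPM in the ST-HFD libraries and 2578 to 7659 CPM in the LT-HFD libraries, the highest being WT LT-HFD replicate 4. All 8 were called higher in WT and 6 in IRF5-KO, among them Dcn with a log2 fold change of 3.66 in WT and 3.26 in IRF5-KO. The sum of 7 macrophage markers was 4019 to 4375 CPM on ST-HFD and 2787 to 3477 CPM on LT-HFD. These 7 did not all move with their sum. In IRF5-KO 2 were called higher, Adgre1 among them, and 3 lower, and in WT 0 were called higher and 2 lower. The part of these shifts in the values of the LAM genes was not tested. Adipocytes express Fabp4, Lpl, Cd36 and Plin2, and the 10 adipocyte markers other than these, all detected, summed to 17.5 to 39.5 CPM on ST-HFD and 6.78 to 31.5 CPM on LT-HFD. Of these 4 genes, Fabp4, Cd36 and Plin2 were highest of all 16 libraries in IRF5-KO LT-HFD replicate 2, which had the lowest adipocyte sum (6.78 CPM) and an endothelial sum of 47.2 CPM. Lpl was highest in IRF5-KO ST-HFD replicate 1 (2646 CPM), which had the highest adipocyte sum (39.5 CPM) and the highest endothelial sum (114 CPM). The part of adipocyte and endothelial RNA in these levels was not tested.

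**Figure D3:**
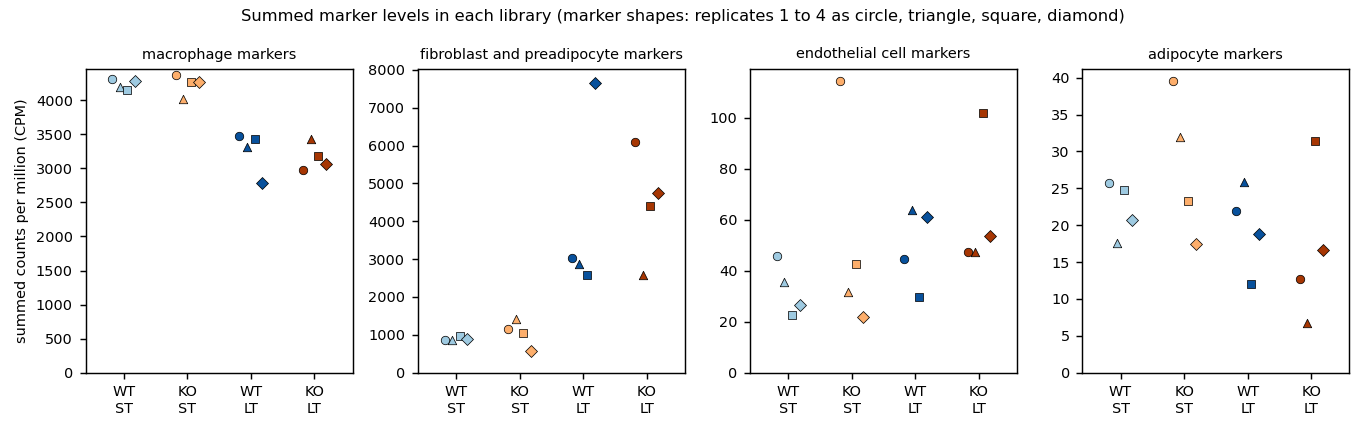
Summed CPM of macrophage, fibroblast and preadipocyte, endothelial and adipocyte markers (vertical axes, linear from 0, each with its own range) in each library by group. Fibroblast and preadipocyte sums are 2578 CPM or more in every LT-HFD library and 1406 CPM or less in every ST-HFD library, whereas adipocyte sums stay at 39.5 CPM or less.

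The second comparison asked whether these genes differed between the libraries labelled IRF5-KO and WT at each diet duration. On LT-HFD all 10 members had higher means in the libraries labelled IRF5-KO than in those labelled WT, by 0.38 (Cd36) to 0.69 (Fabp4) on the log2 scale, with a median of 0.53 beside 0.00 over all 10987 genes, of which 50.1% had a positive value. None passed the test over all genes (smallest edgeR adjusted p = 0.853), in a comparison in which 0.0182% of the genes were called, Lyz1 and Lyz2. At an unadjusted p under 0.05, 3 of the 10 members were higher (Trem2, Fabp4 and Lipa), against 2.23% of all genes. No member separated the genotypes without overlap, as 1.34% of all genes did with higher values in IRF5-KO. The members varied together between libraries, so that 10 values of the same sign are not 10 separate observations.

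Fabp4 had the largest difference on LT-HFD, 0.69 (SE 0.23, unadjusted p = 0.0107, edgeR adjusted p = 0.853), and the WT libraries (125 to 162 CPM) overlapped with 1 IRF5-KO library at 156 CPM. For Trem2 the difference was 0.55 (SE 0.23, edgeR adjusted p = 0.853), with WT replicates 1 and 3 within the range of the IRF5-KO libraries. For Lipa it was 0.48 (SE 0.21, edgeR adjusted p = 0.853), with WT libraries at 350.1 to 581 CPM and IRF5-KO libraries at 464 to 837 CPM. The values depended on IRF5-KO LT-HFD replicate 2. Without it the median over the members was 0.29, Fabp5 changed sign to -0.04, and Plin2 was at 0.14 instead of 0.50. Without WT LT-HFD replicate 4 the median was 0.44 and the members lay between 0.27 and 0.74.

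On ST-HFD the means of the genotypes were close. The log2 fold changes of the 10 members ran from -0.115 (Lipa) to 0.085 (Fabp5), with a median of 0.01, and 0 of 10 were called, where 0.00913% of 10958 genes were (Lyz1). Leaving out single libraries set the sign of the median. It was -0.40, -0.25 and -0.09 without IRF5-KO replicate 1, WT replicate 2 and WT replicate 3, with 0 of 10 members positive each time, and -0.03 without IRF5-KO replicate 4, with 2 positive. It was 0.23, 0.22, 0.195 and 0.195 without WT replicate 4, IRF5-KO replicate 2, IRF5-KO replicate 3 and WT replicate 1, with 10 of 10 positive each time. The standard errors were 0.27 to 0.76 on the log2 scale, so differences of that size were not detectable. Trem2 illustrates this, with means of 95.5 ± 54.1 CPM in IRF5-KO and 97.5 ± 48.8 CPM in WT (SD, n = 4 each). Replicate numbers were taken to pair the ST-HFD libraries from the data and not from the labels, and the pairing is uncertain. Deviations from the group means correlated more between WT replicate 4 and IRF5-KO replicate 1 (0.467) than between WT and IRF5-KO replicate 1 (0.369). With the replicate number as a block 0 of 10 members and 2 genes in all were called, against 1 gene without it.

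The interaction tested whether the difference between genotypes changed with diet duration. It was positive for all 10 members, from 0.37 (Cd36) to 0.67 (Fabp4), with standard errors of 0.36 to 0.99, and 0 of 10 were called (smallest edgeR adjusted p = 0.969), while 48.8% of all genes had a positive value. The median over the members, 0.57, was 0.305 without WT ST-HFD replicate 4, 0.32 without WT ST-HFD replicate 1, 0.33 without IRF5-KO ST-HFD replicate 2 and 0.90 without IRF5-KO ST-HFD replicate 1. Without IRF5-KO LT-HFD replicate 2 it was 0.33, with 9 of 10 members positive. Of all 11560 genes 0.0% were called by edgeR, with 454 at an unadjusted p under 0.05, and DESeq2 also called 0 genes, with 537 at an unadjusted p under 0.05. The calls of Trem2, Cd9 and Fabp4 in IRF5-KO and not in WT are therefore not shown to differ between the genotypes.

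Most members varied more between libraries of a group than the median gene did, the exceptions being Fabp4, Plin2 and Cd36 in WT LT-HFD, whose highest library was 1.30, 1.35 and 1.37 times the lowest. Gpnmb covered the widest range, 1069, 78.7, 575 and 1058 CPM in WT ST-HFD, replicates 1 to 4, and 1609, 167, 295 and 878 CPM in IRF5-KO ST-HFD. Its highest library was 13.6 times its lowest in WT and 9.64 times in IRF5-KO. Over the members the median of this ratio was 3.70 and 3.20 in the ST-HFD groups, beside 1.34 and 1.37 over the 8094 genes with a mean of at least 10 CPM. On LT-HFD it was 2.26 in WT and 2.07 in IRF5-KO, beside 1.41 and 1.40.

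The order of the libraries was shared by the members. WT ST-HFD replicate 2 had the lowest value for all 10 members, and it was the lowest of its group for 26.6% of all genes. Replicates 1 and 4 lay above replicates 2 and 3 for all 10 members in both genotypes on ST-HFD, an order that 21.7% (WT) and 22.6% (IRF5-KO) of 11560 genes had. The pair of numbers was noticed in these values and carries no test. On LT-HFD, IRF5-KO replicate 2 was highest for 9 of 10 members (all but Cd9) and replicate 4 lowest for 8. Among the WT LT-HFD libraries, replicate 3 was highest for 9 (all but Fabp4) and replicate 2 lowest for 8. The LAM genes thus went up and down as a block between libraries of the same group, and members are not replicates of each other.

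**Figure D4:**
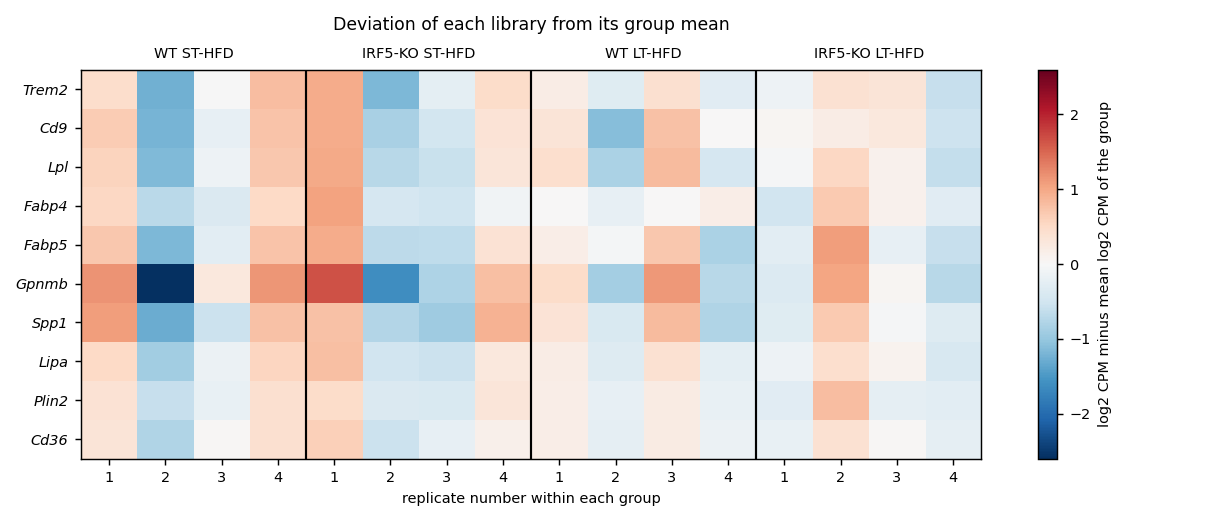
Deviation of each library from the mean of its group (colour, log2 CPM, red above and blue below the mean) for the members (rows) and the 16 libraries (columns, by group and replicate number). Columns are mostly of a single colour, and the strongest colours are in the Gpnmb row, whose WT ST-HFD replicate 2 was at 78.7 CPM in a group that reached 1069 CPM.

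The genes most like Trem2 across the 16 libraries, after the mean of each group was subtracted from the log2 CPM values, were 2 other members, Cd36 (r = 0.964) and Gpnmb (r = 0.961), followed by Adam8 (0.957), Plxdc1 (0.954) and Wsb2 (0.953), out of 8093 genes. ADAM8 is a membrane-bound metalloprotease of myeloid cells. Among the other members Lipa came 13th, Lpl 39th, Cd9 67th, Fabp5 138th, Spp1 164th, Plin2 264th and Fabp4 368th (r = 0.795). For Fabp4 the nearest genes were Mfsd7b (r = 0.929), Mgll (0.926), Arl6ip1 (0.903), Tubb2c (0.900) and Por (0.899). Mgll encodes monoacylglycerol lipase, which takes the last fatty acid from glycerol. Its nearest members were Lipa (25th), Cd36 (27th) and Plin2 (39th). The values share their libraries and depth, and Pearson's r is given as a measure of likeness only.

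Further genes of the LAM programme were taken from a list of 24, all tested. On LT-HFD against ST-HFD in IRF5-KO, 8 rose and 2 fell, and in WT 1 rose and 1 fell, with median log2 fold changes of 0.47 and 0.06. Of all genes, 15.6% were called higher and 17.2% lower in IRF5-KO, and 12.1% and 13.2% in WT. The falls in IRF5-KO and both counts in WT are below these shares. Cd63, a tetraspanin gene of late endosomes, rose in both genotypes, by 0.84 in IRF5-KO (edgeR adjusted p = 0.000920) and 0.54 in WT (adjusted p = 0.0235). Syngr1 rose by 1.70 in IRF5-KO (adjusted p = 0.0218) at a low level, 21.3 ± 10.4 CPM on LT-HFD. Apoe, the lipoprotein gene that macrophages secrete for lipid efflux, went the other way in both genotypes, with -0.60 in IRF5-KO (adjusted p = 0.00345) and -0.54 in WT (adjusted p = 0.00938), and was not called when scaled to macrophage markers (-0.19 and -0.15). On that scale 16 of the 24 were called higher in IRF5-KO and 10 in WT, and 0 lower, beside 43.2% and 38.6% of all genes called higher, and the share in WT is near that of all genes.

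**Figure D5:**
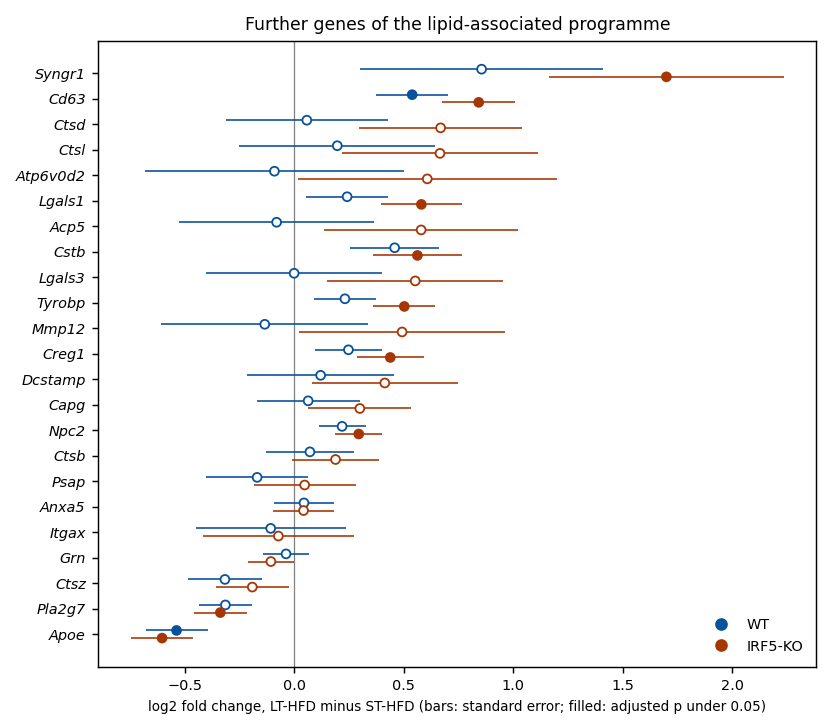
Log2 fold change on LT-HFD against ST-HFD (horizontal axis) of 23 of the 24 further genes of the programme in WT (blue) and IRF5-KO (brown), with standard errors as bars and filled points for an adjusted p under 0.05 from edgeR. Of the genes drawn, 7 are filled above 0 in IRF5-KO and 2 below, and in WT Cd63 is filled above and Apoe below.

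Beside 13.2% (WT) and 17.2% (IRF5-KO) of all genes called lower, 4 of 10 genes of TREM2 signalling fell on LT-HFD in both genotypes. They were the kinase gene Syk (-0.92 in WT and -0.92 in IRF5-KO), the phospholipase gene Plcg2 (-0.90 and -1.16), the phosphatase gene Inpp5d, encoding SHIP1 (-0.86 and -0.97), and Vav1 (-0.54 and -0.60), with edgeR adjusted p-values of at most 0.00640. The adaptor gene Tyrobp rose in IRF5-KO by 0.50 (adjusted p = 0.0120) and had 0.23 in WT (adjusted p = 0.262). Scaled to macrophage markers, Syk (-0.54 and -0.50), Plcg2 (-0.52 and -0.75) and Inpp5d (-0.47 and -0.55) were still called lower in WT and IRF5-KO and Vav1 was not (-0.16 and -0.18). On that scale 4 of the 10 genes were called higher and 3 lower in each genotype, a share of higher calls near the 38.6% (WT) and 43.2% (IRF5-KO) of all genes. The shares of all genes called lower were 4.71% (WT) and 6.45% (IRF5-KO). The median of the 10 genes turned from -0.05 to 0.32 in WT and from -0.08 to 0.34 in IRF5-KO, by about the shift of all genes on this scale.

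Among 16 tested genes of lipid droplets and triglyceride turnover, 2 rose in IRF5-KO and 1 in WT, beside 15.6% and 12.1% of all genes. Scaled to macrophage markers, 8 and 7 were called higher, beside 43.2% and 38.6% of all genes. G0s2, whose product inhibits adipose triglyceride lipase, rose by 3.98 and 3.47 from 0.746 and 1.35 CPM to 12.4 and 15.1 CPM, and Plin3, a second droplet coat gene, rose by 0.40 in IRF5-KO (adjusted p = 0.0297). Among 14 genes of fatty acid and lipoprotein uptake, 2 rose and 5 fell in IRF5-KO, and 1 rose and 3 fell in WT. Of all genes, 15.6% were called higher and 17.2% lower in IRF5-KO, and 12.1% and 13.2% in WT. The rises are not above these shares. Scaled to macrophage markers, 6 of the 14 were higher and 2 lower in IRF5-KO and 4 higher and 1 lower in WT. The shares of higher calls are not above those of all genes (43.2% and 38.6%), of which 6.45% and 4.71% were called lower. Vldlr, a receptor for triglyceride-rich lipoproteins, rose by 3.23 in IRF5-KO and 3.16 in WT, from 3.49 and 4.04 CPM to 33.0 and 35.8 CPM. The fibroblast marker Dcn rose by 3.26 in IRF5-KO and 3.66 in WT, about as much as G0s2 and Vldlr, and the part of fibroblast RNA in these values was not tested. The scavenging receptor gene Lrp1 fell (-1.23 in IRF5-KO and -1.57 in WT), as did Cpt1a, which sends fatty acids into mitochondria (-0.31 and -0.45), although Cpt1a lost its call in both genotypes when scaled to macrophage markers (0.11 in IRF5-KO and -0.05 in WT) and in IRF5-KO also with upper-quartile factors (-0.20). Lmf1, needed for the maturation of lipoprotein lipase, fell in WT (-0.68, adjusted p = 0.00609) and had -0.27 in IRF5-KO (adjusted p = 0.226), and when scaled to macrophage markers it was not called in WT (-0.28) and was at 0.15 in IRF5-KO.

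Of 7 receptor genes for osteopontin, the integrin gene Itga4 fell in both genotypes (-0.94 in WT and -0.74 in IRF5-KO), Itga9 fell in IRF5-KO (-0.85, adjusted p = 0.00103) and Itgb5 rose in IRF5-KO (0.585, adjusted p = 0.0497). Of all genes, 13.2% were called lower in WT, and 17.2% lower and 15.6% higher in IRF5-KO. The single fall in WT and the single rise in IRF5-KO are near these shares. The call of Itga9 was lost when scaled to macrophage markers (-0.42, adjusted p = 0.0968) and that of Itgb5 with RLE size factors (0.58, adjusted p = 0.0537). Scaled to macrophage markers, 3 of the 7 were called higher and 1 lower in IRF5-KO, and 2 higher and 1 lower in WT, with 43.2% and 38.6% of all genes called higher and 6.45% and 4.71% lower. Among 8 tetraspanins and partners of CD9, 6 rose and 1 fell in IRF5-KO, and 4 rose and 0 fell in WT, beside 15.6% and 12.1% of all genes called higher and 17.2% and 13.2% lower. The rises numbered 5 in IRF5-KO with RLE size factors, and in WT 5 with upper-quartile factors and 6 when scaled to macrophage markers. The fall was lost with upper-quartile factors and when scaled to macrophage markers. Ptgfrn rose by 1.69 and 1.39 and Cd151 by 1.04 and 0.68, while Cd82 rose in IRF5-KO (by 0.42, adjusted p = 0.0422) and had 0.39 in WT (adjusted p = 0.0685). Fibroblasts also express Ptgfrn, Cd151 and Cd63, and the fibroblast marker sums given above were higher on LT-HFD too; their part in these values was not tested.

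Of 10 genes of resident macrophages, 6 fell in IRF5-KO and 2 in WT on LT-HFD, and none rose. Of all genes, 17.2% were called lower in IRF5-KO and 13.2% in WT, so that the 2 in WT are near that share. Lyve1, a hyaluronan receptor of perivascular macrophages, fell (-2.53 in IRF5-KO and -1.72 in WT), from 647 and 596 CPM to 112 and 181 CPM. Cd163, the haemoglobin scavenger receptor gene, also fell (-1.86 and -0.945), although in WT its call was lost with upper-quartile factors (-0.865) and when scaled to macrophage markers (-0.55). Timd4, which encodes a receptor for phosphatidylserine, and Cbr2 fell in IRF5-KO (-1.94 and -1.16) and had -0.85 and -0.39 in WT. The call of Cbr2 was lost when scaled to macrophage markers (-0.72). On that scale 3 of the 10 were called lower in IRF5-KO and 1 in WT (Lyve1), 1 was called higher in WT, and the median in WT turned positive (0.14). The same scale called 6.45% of all genes lower in IRF5-KO and 4.71% in WT, and 43.2% and 38.6% higher. For the 7 lists together, no gene was called between genotypes or in the interaction. The medians of the resident genes between genotypes on LT-HFD (-0.60) and of the LAM members (0.53) had opposite signs, and neither list held a called gene.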

How the data were processed

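F4/80+ ATMs were sequenced as stranded total RNA depleted of ribosomal RNA. The authors aligned reads to mm10 with STAR 2.7.3a after fastp 0.19.11, per the submitters' processing notes, and deposited raw counts per gene without normalization. The annotation release and the strand setting are not given in the sources used here. Between 18.6% and 34.5% of counts per library came from 3 features (mt-Rnr1, mt-Rnr2 and mmu-mir-689-2).

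Counts were filtered with filterByExpr, TMM-normalized and tested by edgeR 4.0.16 (quasi-likelihood, Benjamini-Hochberg, adjusted p under 0.05) in R 4.3.3, per diet duration for genotype and over 16 libraries otherwise. Standard errors are the absolute log2 fold change over the square root of F. CPM values share 1 TMM scale. DESeq2 1.42.0 and further alternatives are given below. Coordinates and exon lengths are from GENCODE M21 (GRCm38), which held 32620 of 37310 identifiers.

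Members and lists were chosen with earlier results of these data known. Named beside the members are Irf5, Lyz2 and Adgre1, up to 4 called genes per list by size in WT, and the 5 genes most like Trem2 and Fabp4. From the list of further LAM genes, 1 gene under this rule is counted but not reported here. Tyrobp in IRF5-KO and Dcn were named after their values were seen. Deviations of same-numbered libraries from their group means correlated at 0.369, 0.483, 0.179 and 0.298 on ST-HFD over 9765 genes, taken as a pairing on ST-HFD from the data and not from the labels, although differently numbered libraries reached 0.467 and 0.408. On LT-HFD they were -0.0696, -0.151, 0.0585 and 0.233.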

Additional observations from a re-analysis of the deposited data

Results flagged for a closer look

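In groups of 4 libraries, 4 of 52 groups of values had a single library far from the others, by Dixon's test, where chance alone gives about 1 in 20. Fabp5 in IRF5-KO LT-HFD replicate 2 was at 576.9 CPM, with the other 3 libraries between 180.7 and 235.7 CPM. Plin2 in the same library was at 1741 CPM, with the others between 818 and 855 CPM. Irf5 in WT ST-HFD replicate 1 was at 202.9 CPM, with the others between 247.7 and 251.9 CPM. Lyz2 in IRF5-KO LT-HFD replicate 3 was at 2062 CPM, with the others between 1689 and 1704 CPM.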

How the results depend on the processing

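The number of members called was 0 for genotype on ST-HFD, genotype on LT-HFD and the interaction under every alternative run, and leaving out each library in turn kept it at 0 in WT and moved it between 1 and 5 in IRF5-KO. In IRF5-KO it was 5 with no filter on low counts, which added Spp1 (adjusted p = 0.0312) and Lipa (adjusted p = 0.0302), 4 in a fit over the 8 libraries of the genotype, which added Spp1 (adjusted p = 0.0496), and 4 with upper-quartile factors, which added Lipa (adjusted p = 0.0415), to Trem2, Cd9 and Fabp4. Trem2 was not called with a replicate block (1.22, adjusted p = 0.0615), in which numbers are shared across durations that share no animals. Scaled to the summed macrophage markers (added after seeing the data), 8 members and 5743 genes were called in IRF5-KO and 2 members and 5003 genes in WT, with splits of 4997 higher to 746 lower and 4458 to 545. With upper-quartile factors the splits were 2462 to 1554 in IRF5-KO and 1786 to 1215 in WT, beside 1801 to 1986 and 1401 to 1527 with TMM, and the median of all genes shifted by 0.11 and 0.08. The cause of these differences was not tested.

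For genotype on ST-HFD, 2 genes were called by DESeq2, with no filter, scaled to macrophage markers, with the replicate block and over 16 libraries. Lpl (-0.002), Fabp4 (-0.001) and Cd36 (-0.008) changed sign with upper-quartile factors, Cd36 (-0.000) with no filter and Fabp4 (-0.032) with the block. Leaving out each library in turn gave -0.42 to 0.25 for Trem2, -0.39 to 0.28 for Cd9, -0.41 to 0.25 for Lpl, -0.48 to 0.20 for Fabp4, -0.33 to 0.33 for Fabp5, -0.65 to 0.41 for Gpnmb, -0.30 to 0.42 for Spp1, -0.434 to 0.075 for Lipa, -0.20 to 0.12 for Plin2 and -0.25 to 0.17 for Cd36. For genotype on LT-HFD the genes called were 6 with DESeq2 and with no filter, 1 scaled to macrophage markers, 0 with the replicate block and 0 to 2 without single libraries, and Fabp5 ran from -0.044 to 0.77. In WT between durations, Gpnmb was at 0.018 with upper-quartile factors, 0.30 scaled to macrophage markers, 0.25 with the replicate block and -0.53 to 0.23 without single libraries. Plin2 was at 0.14 scaled to macrophage markers, and without single libraries Lipa ran from -0.041 to 0.38 and Cd36 from -0.13 to 0.22. In IRF5-KO, Lpl ran from -0.11 to 0.52 and Plin2 from -0.068 to 0.45, and in the interaction Fabp5 ran from -0.12 to 0.79. The replicate block changed no other call of a member. Spp1 had the lowest counts of the members, 47 to 407 reads per library.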
